A study of Mus musculus with 28 samples.

Results

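The SR family genes examined here are *Srsf1*, *Srsf2*, *Srsf3*, *Srsf4*, *Srsf5*, *Srsf6*, *Srsf7*, *Srsf9*, *Srsf10* and *Srsf11*, 10 genes taken by symbol from the 15384 genes with a value per library. SR proteins are nuclear RNA-binding proteins with at least one RNA recognition motif and a tail rich in arginine-serine repeats (the RS domain). They bind enhancer sequences in exons, help the spliceosome find the adjacent splice sites, and several of them also act in RNA export. Many SR genes limit their own output by including an exon that carries a premature stop codon (a poison exon) or by splicing that makes their mRNA a target of nonsense-mediated decay (NMD).

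The cells were E14 mouse ES cells (mESCs) grown in serum and LIF. Control cells received a scramble shRNA and KD cells a combination of 2 shRNAs against *Ssrp1*, both from lentiviral vectors, and puromycin at 2 µg/ml was applied for 24 h starting 48 h after transfection. SSRP1 and SUPT16 are the subunits of FACT, a histone chaperone that opens and restores nucleosomes during transcription. Total RNA of 4 control and 4 KD libraries with ERCC spike-in RNA, chromatin-associated RNA of 2 libraries of unperturbed mESCs, and 1 SSRP1 and 1 SUPT16 peak list were used. RNA was measured in populations selected with puromycin, so a change in cell composition and a change in RNA per cell cannot be told apart.

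The targeted gene was lower in all KD libraries. *Ssrp1* lay between 223 and 261 in the control libraries and between 24.1 and 28.9 in the KD libraries, in values scaled to library size by the authors (log2 fold change, logFC, −3.15, limma, adjusted p = 1.18e-22). The control libraries held 4602278 to 6680919 reads on the genes of the table and the KD libraries 9433193 to 19856032, so that depth and treatment cannot be told apart. All 8 mESC markers were higher after KD at an adjusted p below 0.01 (limma), and their summed value was 1620 to 1738 in control and 4667 to 5154 in KD libraries. The markers of other cells were lower by the same rule, except *Tubb3*, which was higher, and *Thy1*, which did not pass. Over all 15384 genes, 35.4% were higher and 37.3% lower by this rule. Of the 3846 genes with a mean value of at least 59.2, 70.1% were higher. The markers were compared only in values scaled to library size, where the median logFC of all genes was −0.03. In values scaled to spike-in RNA that median was 0.95. The summed value of 5 fibroblast markers fell from 50.0 to 63.7 in control to 13.1 to 14.9 in KD libraries, that of 6 primitive endoderm markers from 65.9 to 95.6 to 27.3 to 32.0, that of 5 trophectoderm markers from 943 to 1276 to 729.7 to 779, and that of 2 mesoderm markers from 8.78 to 10.6 to 1.93 to 3.65. The sum of 5 neural markers was 83.7 to 107 in control and 145 to 155 in KD libraries, with *Tubb3* higher (logFC 1.69) and the other 4 lower. No marker was at 0 in any library, and the part of these shifts in the results on SR genes was not tested.

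FACT peaks at the SR genes are described first, since they bear on the sequences shown. Peaks were called by the authors on 2 ChIP replicates of a subunit together and assigned to the nearest gene, and the lists hold positions without heights. A SSRP1 peak was assigned to all 10 SR genes, against 36.0% of the 15384 genes, and to 50.1% of the 3846 genes with a mean value of at least 59.2 (the abundant genes), to which all SR genes but *Srsf4* and *Srsf9* belong. At 9 of the 10 the peak lay within 1000 bp of an annotated start of the gene, against 22.9% of all genes and 36.7% of the abundant genes. A SUPT16 peak was assigned to 7 of the 10, against 18.6% of all genes and 30.1% of the abundant genes, and for the same 7 genes one lay within 1000 bp of a start, against 13.4% and 23.4%. *Srsf4*, *Srsf9* and *Srsf11* had no SUPT16 peak. No test was made of these shares, because the lists give no replicate values and 8 of the 10 genes are among the more abundant ones.

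The peaks at starts were not alike. *Srsf6*, which encodes a protein with a pair of RNA recognition motifs, had a SSRP1 peak of 1666 bp across its start at chr2:162930782-162932448 (positions as listed, mm10), and a SUPT16 peak of 560 bp inside it at chr2:162931510-162932070. *Srsf2*, the family member that binds both G-rich and C-rich exonic motifs, had a SSRP1 peak of the same length that began 50 bp downstream of its start, at chr11:116851378-116853044 over exons and intron, and a SUPT16 peak at chr11:116852050-116852820. *Srsf4* also had a SSRP1 peak of 1666 bp over its start, at chr4:131873014-131874680, where no SUPT16 peak was listed. Thus 3 members carried start peaks of equal listed length, with SUPT16 at 2 of them. Listed lengths rise in fixed steps that differ between SSRP1 and SUPT16, so equal lengths can arise from the steps.

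At *Srsf5* and *Srsf7* the SSRP1 peaks at the start were 1176 and 1274 bp long, and each overlapped a SUPT16 peak. *Srsf9* had a SSRP1 peak of 392 bp at chr5:115327086-115327478 and *Srsf11* one of 490 bp at chr3:158036172-158036662, both across the start. *Srsf10*, whose protein is known as a splicing repressor in its dephosphorylated form, had a SSRP1 peak of 294 bp that began 55 bp downstream of its start and overlapped a SUPT16 peak of 560 bp. The shortest start peaks of SSRP1, of 294 bp, were at *Srsf10* and *Srsf1*.

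*Srsf1*, the founding member of the family, had the most SSRP1 peaks, 5. They lay at midpoints of −890, −8, 776, 4990 and 11360 bp from the start in the direction of transcription. The peak at 776 bp, over exon and intron, overlapped the single SUPT16 peak of *Srsf1*, and the one at 11360 bp lay downstream of the gene. *Srsf6* had 2 more SSRP1 peaks, of 294 bp each, with midpoints at −77215 and −23511 bp from its start.

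*Srsf3*, which encodes the smallest SR protein, differed from the other 9 genes in where its peaks lay. Its start carried a SUPT16 peak (chr17:29032500-29033060) and no SSRP1 peak. A SSRP1 peak at chr17:29039556-29039948 and a SUPT16 peak at chr17:29039640-29039850 overlapped an internal exon of 456 bp at chr17:29039454-29039909, which GENCODE places in NMD transcripts and in none of the protein-coding transcripts of *Srsf3*. A further region began in the last exon, where a SSRP1 peak of 5978 bp ran from 29043280 to 29049258 on chromosome 17, past the gene's end at 29043372, and 3 SUPT16 peaks of 1330, 210 and 280 bp lay under it. This was the longest of the 18 SSRP1 peaks assigned to the family.

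**Figure D1:**
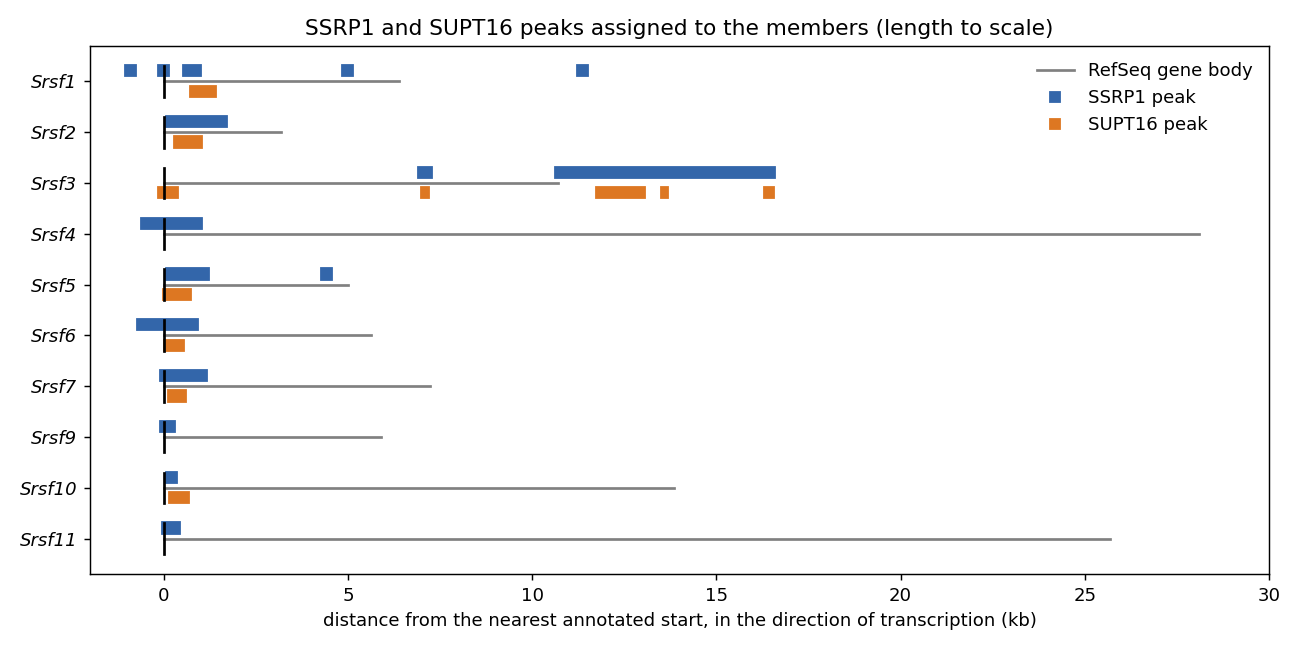
SSRP1 peaks (blue) and SUPT16 peaks (orange) assigned to the 10 SR genes, drawn to length; the horizontal axis is the distance of a peak from the nearest annotated start in kb, grey lines are RefSeq gene bodies and 2 far upstream SSRP1 peaks of *Srsf6* are left out. Peaks gather at the starts, except at *Srsf3*, where SSRP1 peaks lie at an internal exon and beyond the gene's end.

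GENCODE lists an NMD transcript for 9 of the 10 SR genes (not for *Srsf10*), against 27.0% of 13567 protein-coding genes of the table and 31.2% of 3568 abundant ones. Internal exons with the premature stop that are absent from the coding transcripts were found in *Srsf3*, *Srsf4*, *Srsf7*, *Srsf9* and *Srsf11*. Those of *Srsf3* and *Srsf7*, and 1 of 117 bp in *Srsf11*, lie inside the exons over which the authors counted reads, so reads on them enter the values. The values are per gene and do not separate coding from NMD transcripts in any of the 9 genes. Of the 5 genes with such internal exons, only *Srsf3* had FACT peaks on one. The coding stretch of these exons in *Srsf3*, *Srsf7* and *Srsf9*, from the 5′ end of the exon to the premature stop, is shown from GRCm38 because it is the part that ends the reading frame. Capitals mark the stop codon, and the stretches lie at chr17:29039454-29039487 (plus strand), chr17:80205054-80205081 (minus strand) and chr5:115328347-115328428 (plus strand).
Srsf3: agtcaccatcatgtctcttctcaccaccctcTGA
Srsf7: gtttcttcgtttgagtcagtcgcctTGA
Srsf9: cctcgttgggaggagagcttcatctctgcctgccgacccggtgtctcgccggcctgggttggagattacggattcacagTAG

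The promoter windows, 250 bases before to 50 after the start, come from RefSeq (GRCm38.p6), which held all 10 genes. The first window listed per gene was used, for the SR genes and for all genes alike, and *Srsf4* has 3 windows and *Srsf11* 2. The GC content of the first windows was 56.0 to 77.7%, with *Srsf5* lowest and *Srsf4* highest, against a median of 52.7% over the first window of 27025 genes. The windows of 5 genes are printed: *Srsf9*, *Srsf7*, *Srsf3*, *Srsf4* and *Srsf11*. In values scaled to library size *Srsf9* and *Srsf7* rose most after KD, and *Srsf4* and *Srsf11* did not rise. In values scaled to spike-in RNA, *Srsf4* (logFC 1.09) and *Srsf11* (0.84) were also higher. *Srsf3* was taken because its start had a SUPT16 peak alone. SSRP1 peaks overlapped all of these windows but that of *Srsf3*. The positions are chr5:115326927-115327226 (plus strand), chr17:80207256-80207555 (minus strand), chr17:29032410-29032709 (plus strand), chr4:131873387-131873686 (plus strand) and chr3:158036557-158036856 (minus strand), in the order of the lines. Capitals mark matches, on either strand, to the GC box (letters GGGCGG), the ETS core (letters CCGGAA), the CCAAT box, the TATA box (letters TATAAA), the core of the cAMP response element or CRE (letters TGACGT) and the NRF1 motif. No motif holds another within it, although neighbouring matches can run together.
Srsf9: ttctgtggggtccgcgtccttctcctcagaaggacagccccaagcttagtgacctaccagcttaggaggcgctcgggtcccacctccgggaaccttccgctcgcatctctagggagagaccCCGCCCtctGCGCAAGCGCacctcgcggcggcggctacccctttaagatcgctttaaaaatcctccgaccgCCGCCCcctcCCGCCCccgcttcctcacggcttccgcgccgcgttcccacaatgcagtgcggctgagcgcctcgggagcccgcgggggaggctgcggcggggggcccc
Srsf7: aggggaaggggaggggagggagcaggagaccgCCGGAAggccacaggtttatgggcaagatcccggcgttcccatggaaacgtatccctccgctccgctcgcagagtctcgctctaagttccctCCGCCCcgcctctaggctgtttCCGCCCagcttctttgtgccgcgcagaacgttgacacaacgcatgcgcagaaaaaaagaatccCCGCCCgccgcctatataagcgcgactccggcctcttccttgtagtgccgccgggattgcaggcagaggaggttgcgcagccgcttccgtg
Srsf3: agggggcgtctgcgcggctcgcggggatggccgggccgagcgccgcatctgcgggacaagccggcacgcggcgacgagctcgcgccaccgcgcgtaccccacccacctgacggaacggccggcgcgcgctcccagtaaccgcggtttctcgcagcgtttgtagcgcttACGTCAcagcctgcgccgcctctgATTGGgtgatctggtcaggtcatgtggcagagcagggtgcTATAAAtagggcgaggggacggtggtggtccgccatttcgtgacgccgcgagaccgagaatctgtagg
Srsf4: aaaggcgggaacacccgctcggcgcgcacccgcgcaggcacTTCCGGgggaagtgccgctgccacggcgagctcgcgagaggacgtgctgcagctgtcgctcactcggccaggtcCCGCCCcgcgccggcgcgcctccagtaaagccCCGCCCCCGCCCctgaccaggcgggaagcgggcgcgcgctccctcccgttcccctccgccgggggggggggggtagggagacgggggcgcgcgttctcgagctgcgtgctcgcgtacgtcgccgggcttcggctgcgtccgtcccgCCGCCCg
Srsf11: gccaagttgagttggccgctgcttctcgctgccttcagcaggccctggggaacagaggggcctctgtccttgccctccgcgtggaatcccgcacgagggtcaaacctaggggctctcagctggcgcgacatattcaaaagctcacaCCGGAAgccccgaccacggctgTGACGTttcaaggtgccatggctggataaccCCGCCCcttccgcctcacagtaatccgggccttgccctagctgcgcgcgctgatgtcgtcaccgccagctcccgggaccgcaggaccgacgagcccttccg

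The motif shares below are over the windows of all 27025 genes. Shares among the abundant genes, or among windows of like GC content, were not computed. A GC box was present in the windows of 9 of the 10 SR genes, all but *Srsf3*, and in 35.9% of the 27025 windows. The ETS core was in 6 of the 10 and in 15.2% of all windows, the CCAAT box in 4 and 37.9%, the CRE core in 3 and 7.64%, the TATA box in 2 (*Srsf2* and *Srsf3*) and 14.2%, and the NRF1 motif in 2 (*Srsf2* and *Srsf9*) and 4.78%. Beyond the first windows, the NRF1 motif was also in the second window of *Srsf11* and in the last of *Srsf4*. The E-box (letters CACGTG) and the YY1 motif were also searched and were in none of the 10 windows, against 7.24% and 0.699% of all. Any relation of these motifs to the changes after KD was not tested.

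The levels of the family in control mESCs were compared per kb of exon length. *Srsf5* was highest at 125 ± 8.4 (SD, n = 4), and its range overlapped that of *Srsf2* at 113 ± 5.5. *Srsf3* followed at 102 ± 5.4, *Srsf1* at 79.2 ± 2.5, *Srsf7* at 73.1 ± 4.0 and *Srsf6* at 59.0 ± 1.5, and none of these neighbours overlapped. Lower in the order were *Srsf11* at 33.5 ± 0.66, *Srsf10* at 25.9 ± 1.3, *Srsf9* at 23.0 ± 1.5 and *Srsf4* at 18.4 ± 1.6, and of these *Srsf10* and *Srsf9* overlapped. All 10 were above the median of all genes per kb, 8.05, at percentiles from 74.1 (*Srsf4*) to 96.9 (*Srsf5*). The length matters for *Srsf4*, which is at 11.8 with the RefSeq exon length in place of the authors' length, and for *Srsf11*, at 39.0, whereas the order of the 10 genes is not altered. With the RefSeq length the ranges of *Srsf1* and *Srsf7* overlap.

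In KD libraries the order per kb differed from that in control. *Srsf3* (159 ± 6.3) stood ahead of *Srsf2* (148 ± 5.1), and *Srsf7* (126 ± 4.7) ahead of *Srsf1* (119 ± 2.7), but the ranges of each of these neighbours overlapped. *Srsf9* (45.0 ± 2.4) stood above both *Srsf10* (31.0 ± 0.68) and *Srsf11* (29.5 ± 1.4) without overlap, and *Srsf10* above *Srsf11* with overlap. *Srsf5* was highest at 169 ± 4.3, with a range that overlapped that of *Srsf3*, and *Srsf4* lowest at 19.5 ± 1.1.

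KD was compared with control to ask how loss of FACT bears on expression of the family. None of the 10 genes passed the thresholds of the study (absolute logFC above 1 and adjusted p below 0.01), against 8.07% of all genes higher and 20.6% lower. By adjusted p alone, 8 were higher in KD, against 35.4% of all genes, and 1 was lower, against 37.3%. Of the abundant genes 70.1% were higher by this rule, so the 8 of 10 are to be read against that share. The values of 8 genes were above those of control in all KD libraries, against 35.8% of all genes, and those of 1 gene below, against 37.5%. The median logFC of the 10 was 0.42, beside −0.03 over all genes and 0.47 over the abundant genes.

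*Srsf9*, a close relative of *Srsf1*, rose most. Its library-size values were 28.6, 27.5, 27.6 and 31.5 in the control libraries, given here and later in the order of replicates 1 to 4, and 58.6, 54.3, 53.2 and 59.1 in the KD libraries. The lowest KD library was above the highest control library. Its logFC was 0.96 ± 0.08 (SE, limma, adjusted p = 6.34e-12). As few as 154 reads stood behind these values in a library, the lowest number in the family.

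*Srsf7*, which encodes the member with a zinc knuckle and, like *Srsf3*, an adaptor in mRNA export, had values of 211, 186, 200.2 and 207 in control and 350.1, 343, 359.8 and 329 in KD libraries, with no overlap. It rose by a logFC of 0.78 ± 0.06 (limma, adjusted p = 7.64e-13). *Srsf3* was at 330.0, 292, 303 and 316 in control and at 508, 475, 488 and 463 in KD libraries. Again the groups did not overlap, and its logFC was 0.64 ± 0.06 (adjusted p = 4.86e-11).

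*Srsf1*, the most abundant before division by length, was at 437, 408, 412 and 411 in control and at 646, 618, 615 and 632 in KD libraries. Control replicate 1 stood apart from the other control libraries, which lay between 408 and 412. The KD libraries were all higher, with a logFC of 0.59 ± 0.05 (limma, adjusted p = 1.18e-10).

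*Srsf5* was at 220.1, 197, 193 and 217 in control and at 272, 275, 286 and 286 in KD libraries (logFC 0.44 ± 0.06). *Srsf2* was at 212, 207, 209 and 229.8 in control and at 277, 288, 271 and 292 in KD libraries (logFC 0.39 ± 0.05). *Srsf6* was at 214, 210.5, 202 and 211 in control and at 269, 267, 256 and 281 in KD libraries (logFC 0.36 ± 0.05). In each of the 3 genes the groups were apart, and the adjusted p (limma) was 8.14e-08, 2.63e-07 and 9.49e-07 in that order. *Srsf2* overlaps exons of *Mfsd11* on the opposite strand, and the sources used here do not say whether reads were counted by strand, so reads of both genes cannot be told apart. *Srsf4* likewise overlaps the lncRNA gene *Gm12992* on the opposite strand.

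*Srsf10* had the smallest of the rises. It was at 152, 139, 135 and 142 in control and at 174, 167, 167 and 174 in KD libraries, with a logFC of 0.26 ± 0.06 (limma, adjusted p = 1.28e-04). *Srsf4* was at 39.5, 37.7, 43.6 and 45.4 in control and at 43.3, 45.0, 40.8 and 46.7 in KD libraries. These groups overlapped, and the logFC of 0.08 ± 0.08 did not pass the test (adjusted p = 0.334).

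*Srsf11*, whose protein contacts U2AF, was the one member below control. It was at 126, 121, 121 and 124 in control and at 105, 103, 114 and 111 in KD libraries. The highest KD library was under the lowest control library, and the logFC was −0.18 ± 0.06 (limma, adjusted p = 0.00475). The call was lost when control replicate 4, KD replicate 1 or KD replicate 2 was left out, with a logFC of −0.18, −0.17 and −0.16, and by DESeq2 on the recovered reads (−0.15) or with median-of-ratios factors (−0.15).

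**Figure D2:**
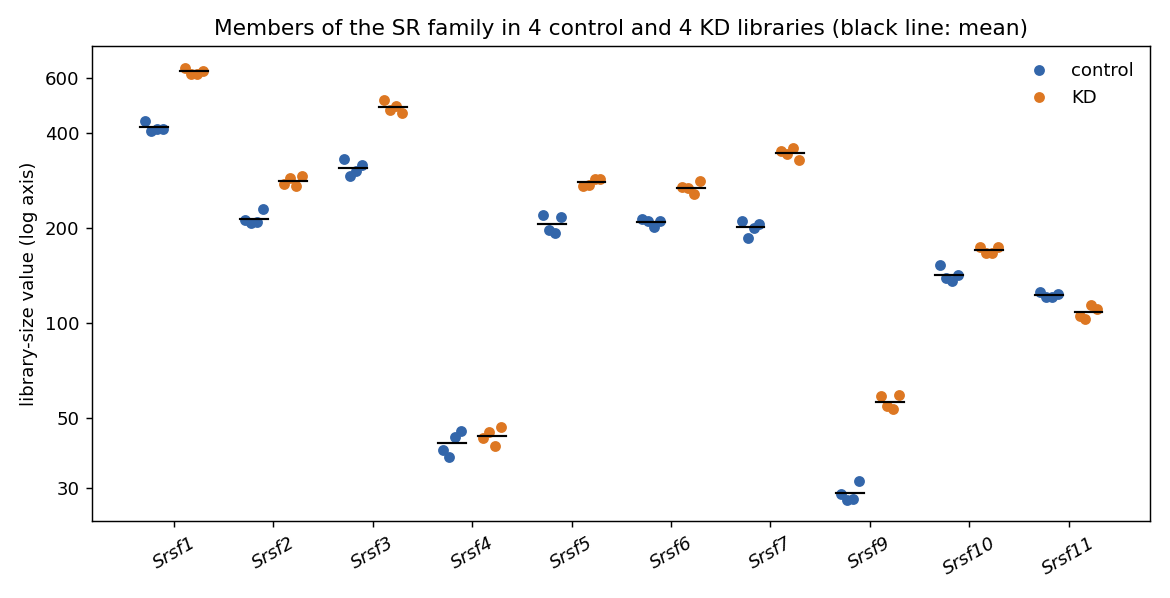
Library-size values (log axis) of the 10 SR genes in the 4 control libraries (blue) and 4 KD libraries (orange), 1 point per library and a black line for the mean. The groups are apart for 9 genes, 8 of them higher in KD and *Srsf11* lower, and overlap for *Srsf4*.

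The sign of several of these changes differed between scalings of the libraries. The library-size values summed to 825584 to 909417 in control and to 1137290 to 1182580 in KD libraries, so that scaling the recovered reads to their total (CPM) gave lower folds. The median logFC of all genes was −0.03 in library-size values, −0.45 in CPM, 0.05 after quantile normalisation and 0.95 in the values scaled by the authors to spike-in RNA. In CPM, *Srsf9* (0.53), *Srsf7* (0.35), *Srsf3* (0.21) and *Srsf1* (0.16) were higher at an adjusted p below 0.01, as were 18.0% of all genes, and *Srsf11* (−0.61), *Srsf4* (−0.34) and *Srsf10* (−0.17) were lower, as were 56.5%. *Srsf2* (−0.04), *Srsf5* (0.01) and *Srsf6* (−0.07) did not pass the test in CPM. In spike-in values all 10 were higher, with logFC from 0.84 (*Srsf11*) to 1.97 (*Srsf9*), as were 56.0% of all genes, while 8.75% of all genes were lower and none of the family.

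Relative to the median of all genes, 9 of the 10 were higher in library-size, CPM and spike-in values, with *Srsf11* the exception, whereas after quantile normalisation 2 were. Relative to the abundant genes (medians of 0.47, 0.04 and 1.49), *Srsf9*, *Srsf7*, *Srsf3* and *Srsf1* lay above and the other 6 below under those 3 scalings. After quantile normalisation (median of the abundant genes 0.05), *Srsf9* (0.79) and *Srsf7* (0.21) lay above it and *Srsf3* (0.01) and *Srsf1* (−0.11) did not. *Srsf9* and *Srsf7* were thus higher at an adjusted p below 0.01 under all 4 scalings, which for quantile normalisation held for 33.7% of all genes.

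**Figure D3:**
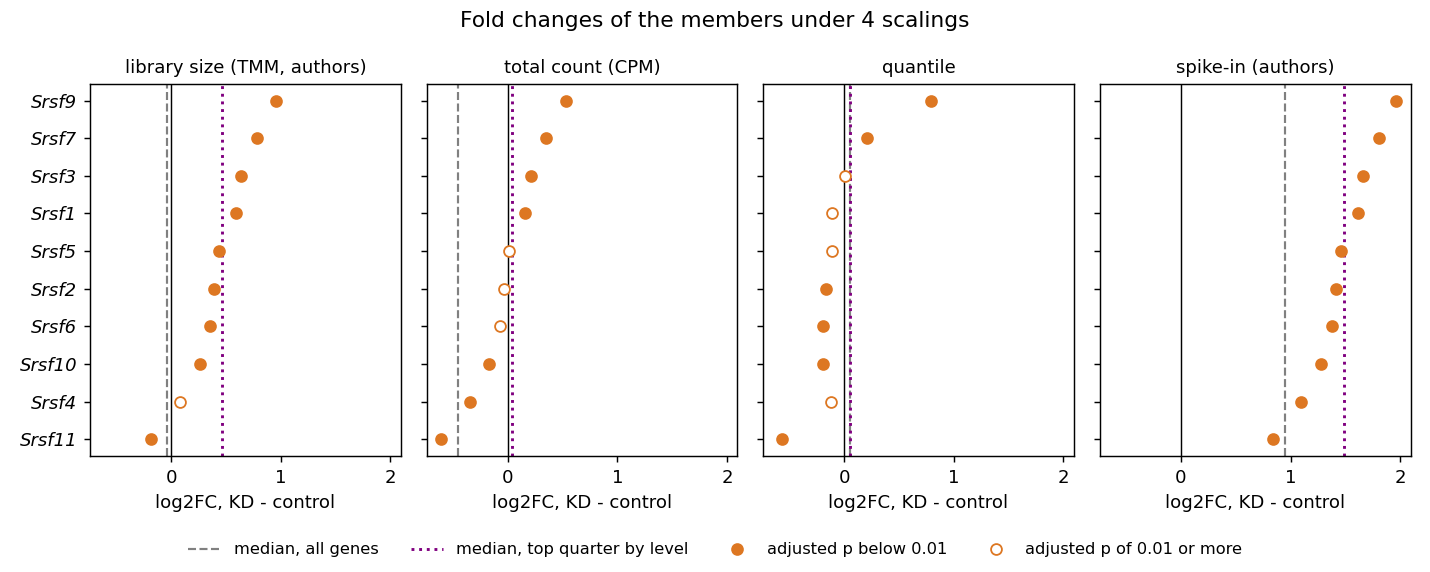
logFC (KD minus control) of the 10 SR genes under 4 scalings, with filled points for an adjusted p below 0.01 and open points otherwise; dashed lines give the median of all genes and dotted lines the median of the 3846 abundant genes. *Srsf9* and *Srsf7* lie to the right of both lines in every panel and *Srsf11* to the left of both.

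Ratios between members of a library are not altered by 1 scaling factor per library, as in library-size values, CPM and spike-in values, but quantile normalisation, which has no such factor, can alter them. In library-size values, 5 pairs of related build were compared by an exact permutation test over the 8 libraries, two-sided, whose smallest possible p is 0.0286. Other pairs of genes were not compared, and by value 35.8% of all genes lay above control in all KD libraries and 37.5% below. A separated ratio is therefore not shown to be particular to these pairs. The ratio of *Srsf1* to *Srsf9* was 15.0, 14.6, 14.7 and 12.9 in control and 10.9, 11.3, 11.5 and 10.6 in KD libraries. It was lower in all KD libraries, with a log2 difference of −0.37 ± 0.06 (SE; exact permutation test, p = 0.0286, 0.0357 after adjustment over the 5 pairs). *Srsf9* was thus higher relative to *Srsf1* in KD libraries.

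The ratio of *Srsf3* to *Srsf7* was 1.56, 1.57, 1.51 and 1.53 in control and 1.45, 1.38, 1.36 and 1.41 in KD libraries. It fell in all KD libraries, by a log2 difference of −0.14 ± 0.02, with the same exact p of 0.0286. *Srsf4*, *Srsf5* and *Srsf6*, whose proteins share the build of a pair of RNA recognition motifs with a long RS domain, were compared with each other. The ratios among these genes are not independent, since those of *Srsf4* to *Srsf6* and *Srsf5* to *Srsf6* fix that of *Srsf4* to *Srsf5*. The ratio of *Srsf4* to *Srsf6* was 0.186, 0.181, 0.218 and 0.217 in control and 0.162, 0.170, 0.161 and 0.167 in KD libraries, a log2 difference of −0.27 ± 0.07 (exact permutation test, p = 0.0286). The ratio of *Srsf4* to *Srsf5* was 0.203 in control and 0.158 in KD libraries as geometric means, a log2 difference of −0.36 ± 0.09 with the same exact p. After quantile normalisation both of these differences were lost, at 0.08 ± 0.08 for *Srsf4* to *Srsf6* and −0.0029 ± 0.073 for *Srsf4* to *Srsf5*, with overlapping groups. Those of *Srsf1* to *Srsf9* (−0.91 ± 0.08) and *Srsf3* to *Srsf7* (−0.20 ± 0.02) stayed without overlap, at 0.0714 after adjustment over the 5 pairs (exact permutation test). *Srsf5* and *Srsf6* overlapped, with ratios of 0.934 to 1.03 in control and 1.01 to 1.12 in KD libraries and a log2 difference of 0.08 ± 0.05 (exact permutation test, p = 0.229), which leaves a difference of this size unresolved with 4 libraries a group.

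**Figure D4:**
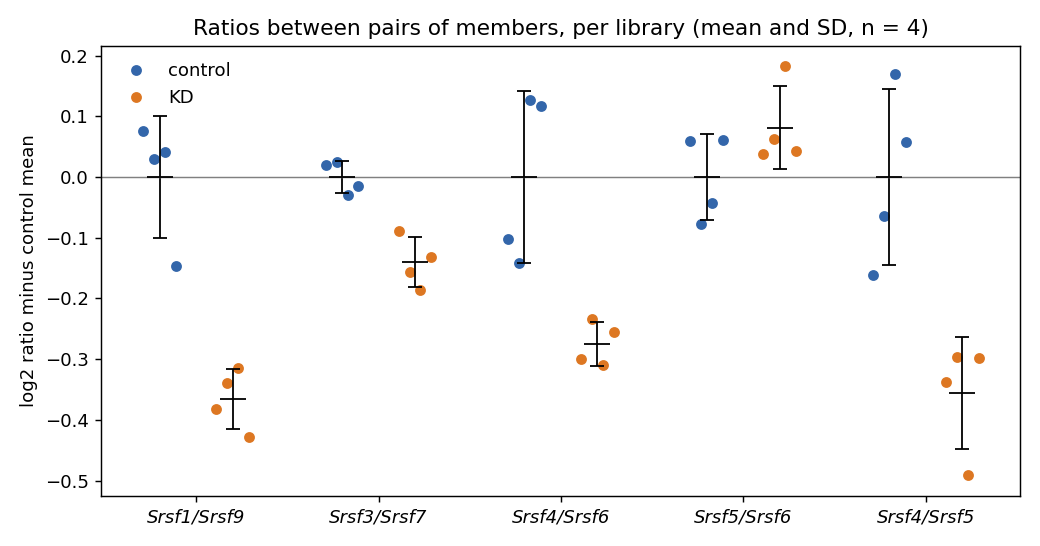
log2 ratios of 5 pairs of SR genes in each library, from library-size values, with the control mean of the pair subtracted; blue points are control and orange points KD libraries, and bars are the mean and SD of 4. KD libraries lie below all control libraries for 4 pairs, and the groups overlap for *Srsf5*/*Srsf6*. Other pairs of genes were not compared.

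The make-up of the family in library-size values differed between the groups. As a share of the summed per-kb values of the 10 genes, *Srsf9* went from 3.53 ± 0.15% in control to 4.88 ± 0.22% in KD libraries, *Srsf7* from 11.2 ± 0.30% to 13.6 ± 0.56%, *Srsf3* from 15.6 ± 0.33% to 17.2 ± 0.65% and *Srsf1* from 12.2 ± 0.38% to 12.9 ± 0.20%. *Srsf11* went from 5.14 ± 0.12% to 3.20 ± 0.15%, *Srsf4* from 2.83 ± 0.23% to 2.11 ± 0.12%, *Srsf6* from 9.07 ± 0.29% to 8.20 ± 0.29% and *Srsf10* from 3.97 ± 0.13% to 3.36 ± 0.05% (SD, n = 4). For these 8 genes no control and KD library overlapped, while the shares of *Srsf2* and *Srsf5* did overlap. By value, 35.8% of all genes lay above control in all KD libraries and 37.5% below, so groups without overlap were common. Shares within other sets of genes were not computed. The 10 genes together made up 0.217 to 0.224% of the values of all genes in control and 0.224 to 0.235% in KD libraries.

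SR proteins are phosphorylated in their RS domain by SRPK kinases in the cytoplasm, carried into the nucleus by transportin 3 (*Tnpo3*), and phosphorylated further by CLK kinases. Of 11 genes listed for kinases, import and phosphatase, 7 were higher and 0 lower in library-size values at an adjusted p below 0.01 (limma), and 4 did not pass. Over all genes these shares were 35.4% higher and 37.3% lower, and 70.1% of the abundant genes were higher. In CPM 3 of the 11 were higher and 5 lower (18.0% and 56.5% of all genes), after quantile normalisation 3 and 3 (33.7% and 29.2%), and in spike-in values 10 and 0 (56.0% and 8.75%). *Srpk1* was at 96.0, 99.6, 103 and 96.3 in control and at 227, 217, 220.3 and 226 in KD libraries, and passed both thresholds (logFC 1.17 ± 0.05, adjusted p = 1.11e-16). It was also higher in CPM (0.74) and after quantile normalisation (0.74).

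*Tnpo3* was at 155 ± 9.6 in control and 253 ± 5.0 in KD libraries (SD, n = 4; logFC 0.71), *Clk2* at 24.1 ± 2.3 and 39.1 ± 3.6 (0.68), and the phosphatase gene *Ppp1ca* at 202 ± 6.6 and 303 ± 12 (0.58). Their groups did not overlap, and *Tnpo3* was higher under all 4 scalings. *Prpf4b* (0.33), *Srpk2* (0.30) and *Clk1* (0.19, with overlapping groups) passed the test in library-size values, but *Prpf4b* and *Clk1* had logFC of −0.10 and −0.24 in CPM and −0.07 and −0.21 after quantile normalisation, and *Srpk2* −0.13 in CPM. *Clk3* (0.20), *Clk4* (−0.18), *Dyrk1a* (−0.09) and the low *Srpk3* (3.90 ± 0.37 in control and 2.38 ± 0.54 in KD, −0.63) did not pass.

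Other groups of splicing genes are given by counts in library-size values, to be read against 35.4% higher and 37.3% lower over all genes (70.1% higher over the abundant genes), in CPM, against 18.0% and 56.5%, and in spike-in values, against 56.0% and 8.75%. Of 23 genes for SR-related and SR-like proteins, 11 were higher and 6 lower (3 and 12 in CPM, 16 and 1 in spike-in values). The largest rises were *Bclaf1* (0.74) and *Rnps1* (0.74), a component of the exon junction complex, and the largest falls *Srrm3* (−2.73) and *Srrm4* (−1.53), regulators of neural microexons, of which *Srrm3* fell from 10.9 ± 2.8 to 1.19 ± 0.32. These 4 kept their sign under the 4 scalings, and *Srrm4* did not pass the test in spike-in values (−0.55).

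Of 12 genes for splice site recognition, 8 were higher and 2 lower (7 and 4 in CPM, 10 and 0 in spike-in values). *U2af1*, the subunit that reads the 3′ splice site AG, rose from 27.0 ± 2.5 to 64.1 ± 1.6 (logFC 1.23) and *Snrnp70*, of the U1 particle, from 113 ± 5.2 to 233 ± 13 (1.04). *Zrsr2* (−0.55) and *Prpf8* (−0.33) fell, but were at 0.46 and 0.69 in spike-in values.

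Of 21 hnRNP genes, whose proteins often oppose SR proteins at exons, 18 were higher and 1 lower (9 and 8 in CPM, 20 and 0 in spike-in values). *Hnrnpa0* (1.24) and the low *Hnrnph3* (1.18; 1.75 ± 0.48 in control and 4.57 ± 0.97 in KD) rose most, and *Ptbp2* fell (−1.12), from 47.7 ± 5.0 to 21.7 ± 1.7, a call that was lost in spike-in values (−0.11). Of 12 genes for NMD and export, 4 were higher and 2 lower (3 and 8 in CPM, 10 and 0 in spike-in values), with *Upf3b* (0.84) and *Alyref* (0.82) at the top and *Upf2* (−0.52) and *Smg1* (−0.30) at the bottom. *Upf2* and *Smg1* were at 0.50 and 0.72 in spike-in values. The medians of the 4 lists in the order given were 0.22, 0.73, 0.55 and 0.05, beside 0.42 of the SR family. After quantile normalisation 3, 6, 8 and 3 genes of these lists, in that order, were higher, against 33.7% of all genes. Lower were 11, 4, 7 and 6, against 29.2%.

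The genes whose profile over the 8 libraries was nearest to the mean profile of the 10 SR genes were *Pfas* (Euclidean distance of centred log2 values 0.0629), *Vps54* (0.0781) and *Vcl* (0.0785). They had logFC of 0.41, 0.44 and 0.43. In all, 30 genes outside the lists were nearer to the mean profile than *Srsf5*, the nearest member at 0.113, and *Srsf11* was the farthest at 0.879, followed by *Srsf9* at 0.754.

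Chromatin-associated RNA was counted in 2 libraries of unperturbed mESCs, with totals of 3441643 and 3393923 counts, of which 5.56 and 9.35% lay on protein-coding genes. The 10 SR genes held 450 and 1014 of these counts, so that the intervals, exact Poisson at 95% and for counting error alone, are wide. CPM here is counts scaled to the total of the chromatin library. *Srsf5* had 8.79 (6.52 to 11.6) and 15.2 (12.1 to 18.7) CPM per kb in libraries 1 and 2, *Srsf7* 6.24 (4.75 to 8.05) and 15.7 (13.2 to 18.4), and *Srsf2* 6.41 (4.62 to 8.67) and 15.3 (12.5 to 18.7). These intervals overlapped within each library, so the 3 genes could not be ordered at this depth.

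*Srsf9* had the lowest point values, with 5 and 6 counts, or 1.16 (0.377 to 2.71) and 1.41 (0.518 to 3.07) CPM per kb. Its intervals overlapped those of *Srsf4* in both libraries and those of *Srsf10* and *Srsf11* in library 1, so the lowest gene was not resolved. *Srsf4* was at 2.19 and 2.35, from 17 and 18 counts. In CPM, *Srsf9* and *Srsf4* were the 2 genes for which the libraries agreed most closely. For *Srsf3* (3.82 and 12.4) and *Srsf10* (1.37 and 4.45) library 2 was higher by 3.24-fold. The median-of-ratios factor of library 2 over library 1, taken over genes with counts in both, was 1.61. The ratios of *Srsf5* (1.72) and *Srsf6* (1.78) were nearest to that factor, so the order of agreement depends on the scaling. Over the family the counts differed by 2.25-fold between the libraries at nearly equal totals, and no test was made because both libraries are of 1 group.

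Across the 10 genes, chromatin RNA per kb followed total RNA per kb of the control libraries, with a Spearman correlation of 0.903 (0.879 and 0.842 for each chromatin library alone), given as a description of 10 genes that share exon lengths in both measures. *Srsf5* had rank 1 by total RNA and by mean chromatin RNA, but rank 3 in chromatin library 2 alone. *Srsf7* had rank 5 by total RNA and rank 2 by mean chromatin RNA, and *Srsf3* ranks 3 and 5. These chromatin ranks are of point values, and the intervals of *Srsf5*, *Srsf7*, *Srsf2* and *Srsf1* overlapped in each library. Those of *Srsf3* overlapped the intervals of *Srsf1*, *Srsf2*, *Srsf6* and *Srsf7* in each library, so its chromatin rank was not resolved either.

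**Figure D5:**
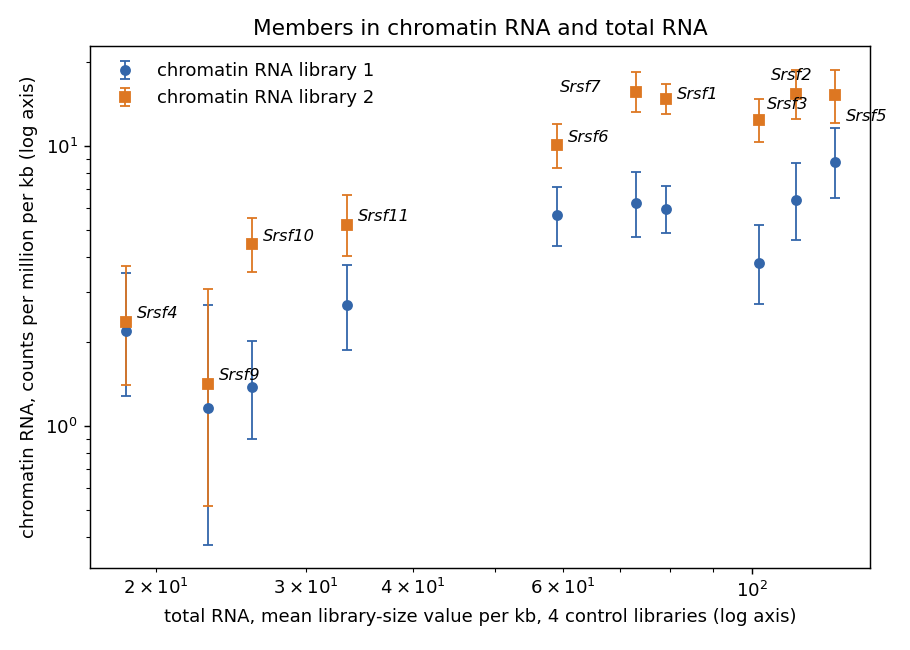
Chromatin RNA (CPM per kb, log axis) of the 10 SR genes in 2 libraries against total RNA (mean library-size value per kb of 4 control libraries, log axis); bars are 95% Poisson intervals. Genes with more total RNA tend to have more chromatin RNA. The point of *Srsf9* is lowest in both libraries, followed by *Srsf10* in library 1 and *Srsf4* in library 2. The bars of *Srsf9* overlap those of *Srsf4* in both libraries and those of *Srsf10* and *Srsf11* in library 1.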

How the data were processed

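Total RNA was depleted of ribosomal RNA and sequenced with a directional kit. The authors aligned reads with STAR to mm10 (2.5.1b in the processing notes, 2.4.1b in the methods), kept genes above 1 CPM and deposited a signal per gene and library, scaled to library size or to spike-ins. For chromatin RNA (STAR 2.4.1b, featureCounts), raw counts per gene were deposited with exon lengths. For ChIP, reads aligned with Bowtie2 2.2.6 were given to PePr, which made 1 list of peak positions per subunit. Deposited tables of fold changes and p-values (KD, NPCs, exon usage) hold the authors' own comparisons and were not used. NPCs, exon usage, MNase-seq, ATAC-seq and NET-seq were not analysed here.

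Whole reads were recovered from the step between values (100% of values whole within 0.1). On the scale log2(value + 0.5), library-size values of KD and control were compared by limma 3.58.1 with a mean-variance trend over 15384 genes and Benjamini-Hochberg adjustment. Alternatives were DESeq2 1.42.0 and edgeR 4.0.16 for the recovered reads, other scalings, pseudocounts 0.1 and 2, a filter at a mean value of 5, fits with a replicate block, and leaving out single libraries. CPM scaling, and quantile normalisation for the ratios, were chosen after seeing the data. The fits were tested on simulated reads with few genes changed, up and down equally, by an absolute logFC of 1 or more. Smaller changes, or changes in most genes, were not simulated. R 4.3.3 and Python 3.11.15 with scipy 1.17.1 were used. Chi-square per degree of freedom between libraries of a group was 1.88 to 6.61, so none was a duplicate. The methods call the RNA libraries biological replicates, without saying whether each was a separate transfection, and p-values measure the spread between these libraries.

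Named genes were the 10 members, *Ssrp1*, all genes of the kinase list, the 2 largest rises and falls past an adjusted p of 0.01 in each other list, and the 3 nearest profiles. *Tubb3*, *Thy1*, *Mfsd11* and *Gm12992* were named after their values or positions were seen. Members and lists were chosen with earlier results of these data known. Gene starts are RefSeq (GRCm38.p6), where curated transcripts were used, and transcript classes are GENCODE vM21.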

Additional observations from a re-analysis of the deposited data

Results flagged for a closer look

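In the control libraries, the value of *Srsf1* in replicate 1 (437) stood apart from those of the other 3 (408 to 412): its gap to the nearest was 0.833 of the range of the group, above Dixon's 95% limit for 4 libraries. Of 30 groups of 4 libraries examined over the 10 genes and 5 ratios this was the 1 that exceeded it, and chance flags about 1 in 20. All KD libraries (615 to 646) were above replicate 1.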

How the results depend on the processing

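Over 379 alternative values, 332 kept direction and side of the threshold or moved little. The count of genes past both thresholds (4405) became 8476 with spike-in values, where 9 SR genes passed both. Quantile normalisation gave 2 SR genes higher and 4 lower at an adjusted p below 0.01, and reversed *Srsf1* (−0.11), *Srsf2* (−0.17), *Srsf4* (−0.12), *Srsf5* (−0.11), *Srsf6* (−0.20) and *Srsf10* (−0.20). CPM, chosen after seeing the data, gave 4 and 3, and reversed *Srsf2* (−0.036), *Srsf4* (−0.34), *Srsf6* (−0.074) and *Srsf10* (−0.17). Spike-in values reversed *Srsf11* (0.84). SR genes lower numbered 0 with DESeq2, spike-ins and median-of-ratios factors, and 0 to 1 with a library left out. The cause was not tested.

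With a replicate block, the pair ratios differed by −0.37 (*Srsf1*/*Srsf9*), −0.14 (*Srsf3*/*Srsf7*), −0.27 (*Srsf4*/*Srsf6*) and −0.36 (*Srsf4*/*Srsf5*) at an adjusted exact sign-flip p of 0.156, since 16 sign patterns cannot reach 0.05. Same-numbered libraries deviated together with correlations of −0.06 to 0.05, so the numbers did not pair the libraries, and the block changed no count of SR genes called in limma. Quantile normalisation, chosen after seeing the data, gave −0.91, −0.20, 0.079 (reversed) and −0.0029 for the 4 pairs in that order, at an adjusted exact p of 0.0714 for the first 2, whose unadjusted p stayed at 0.0286 while fewer pairs reached it.

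The highest level per kb was 6.78 times the lowest and became 10.6 times with RefSeq lengths. The median chromatin level of the 10 genes, 7.98 CPM per kb, became 103 when scaled to protein-coding counts (chosen after seeing the data) and 4.74 to 11.2 with 1 library left out. With SSRP1 peaks of at least 500 bp, 6 SR genes had a peak and 5 one at a start (the latter chosen after seeing the data). The shares of all genes and of the abundant genes with peaks of that length were not computed. These 2 counts therefore cannot be read against a background. Counting error limits the chromatin values of low genes such as *Srsf9* (5 and 6 counts), and the spread between the 2 libraries exceeded it for others such as *Srsf3*.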
